A study of Homo sapiens with 8 samples.

Results

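The transcripts of the mtDNA minus strand were followed through miCLIP of NSun3 and NSun6 and through bisulfite RNA sequencing of the same cell line. Members were all mtDNA positions of this strand. In the miCLIP data these are the truncation positions listed on mtDNA in the second pass over the chromosomes, 465 of 127854 positions with reads in at least 1 library. In the bisulfite table they are the positions whose reference base is G, so that the cytosine lies on the minus strand, 1954 of 76013928 listed positions. Members were grouped as MT-ND6, the 8 tRNA genes of this strand, positions antisense to plus-strand genes, and noncoding positions.

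Human mtDNA is transcribed in full from both strands, from promoters in the control region, into long precursors that are cut at the tRNAs. Nearly all protein genes and both rRNA genes are read from the plus-strand precursor. The minus-strand precursor gives MT-ND6, a subunit of respiratory complex I, and the tRNAs for glutamine, alanine, asparagine, cysteine, tyrosine, serine, glutamate and proline. The remainder of that precursor is antisense to plus-strand genes and is known to be degraded quickly inside mitochondria.

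The miCLIP samples were HEK293 cells, an established human embryonic kidney line, transfected with a myc-tagged NSun3 or a myc-tagged NSun6 construct and harvested after 24 hours, 3 replicates per enzyme, all pulled down with an antibody against c-myc. NSun3 and NSun6 are RNA cytosine methyltransferases. The methods describe a catalytic mutant that stays linked to its target cytosine, so that reverse transcription ends beside it, and both enzymes came from transfected constructs in whole-cell lysates, not from the endogenous genes. The other 2 samples were HEK293 cells whose labels name no construct. They served for bisulfite sequencing of poly(A) RNA, with their values in 1 shared table and therefore no replicate error. No input library was used here, so more binding per transcript and more of the transcript cannot be told apart.

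Libraries held 47352 to 138921 reads for NSun3 and 305392 to 467586 for NSun6, so that 1 read was worth 7.20 to 21.1 RPM (reads per 1000000 reads of the library) and 2.14 to 3.27 RPM. In gene bodies of the transfected genes, NSUN6 had 327, 446 and 333 reads in the NSun6 libraries and none in the NSun3 libraries. NSun3 replicates 1 and 2 held 32 and 19 reads of NSUN3. The third library labelled NSun3 held none, and the NSun6 libraries held 1, 0 and 8, so this check gave its label no support, and results that rest on that library are given with and without it. Nothing in the labels says whether replicates came from separate cultures, so p-values measure the spread between these libraries. Counts of any 2 replicates varied beyond sampling noise, with chi-square values of 5.25 to 19.7 per degree of freedom.

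The tRNA genes that carried most of the reads are shown first, in transcript sense, with the cytosines that were high-confidence miCLIP sites in capitals. Truncations were assigned to the closest cytosine up to 2 nt away, and cytosines above 50 RPM in 2 or 3 replicates were counted as high-confidence sites. The last line is the strand opposite MT-TT, the gene of tRNA-Thr, whose cytosine in capitals was a site for NSun3 and had no NSun6 read. Sequences are from GENCODE transcripts on GRCh37.
MT-TY: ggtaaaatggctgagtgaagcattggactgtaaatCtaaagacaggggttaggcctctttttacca
MT-TP: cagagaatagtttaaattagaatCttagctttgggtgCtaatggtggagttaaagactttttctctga
MT-TC: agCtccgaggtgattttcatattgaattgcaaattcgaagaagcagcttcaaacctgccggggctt
antisense MT-TT: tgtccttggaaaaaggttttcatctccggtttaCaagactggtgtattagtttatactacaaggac

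Coordinates are those of the deposited files, hg19 with its older mtDNA numbering, which differs by 1 to 2 nt from that of the reference used here. MT-TY, the gene of tRNA-Tyr, lay at chrM:5827-5892. MT-TP, the gene of tRNA-Pro, lay at chrM:15957-16024, and MT-TC, the gene of tRNA-Cys, at chrM:5762-5827. MT-ND6 lay at chrM:14150-14674. All are single-exon genes of the minus strand, and MT-TY and MT-TC share a base.

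The first comparison asks how much of the mtDNA signal of each enzyme was on the minus strand, and in which transcripts. The minus strand held few of the mtDNA reads of either enzyme. Its share was 2.10%, 2.20% and 2.40% in the NSun3 libraries and 3.15%, 2.97% and 2.48% in the NSun6 libraries. All NSun3 libraries were below all NSun6 libraries, with means of 2.23% ± 0.153 and 2.87% ± 0.342 (SD, n = 3; exact permutation test, two-sided p = 0.1). No smaller p can be reached with 3 libraries against 3. As a share of all reads the order was the opposite, with 0.790%, 0.756% and 0.585% against 0.301%, 0.239% and 0.223% (exact permutation test, two-sided p = 0.1). Counts on the minus strand were 1097, 401 and 277 reads at 198, 39 and 9 positions for NSun3, and 974, 1116 and 681 reads at 78, 197 and 101 positions for NSun6.

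Transfer RNA genes took most of the minus-strand reads of NSun6 but not of NSun3. Their share was 76.9%, 71.6% and 74.0% in the NSun6 libraries, against 36.3%, 40.4% and 47.3% in the NSun3 libraries. The groups did not overlap, and the difference in means was -32.8 percentage points (exact permutation test, two-sided p = 0.1). Without NSun3 replicate 3 it was -35.8 points. With each position counted once in place of its reads, the difference shrank to -6.89 points with overlapping groups (exact permutation test, two-sided p = 0.4). Antisense and noncoding positions together made up 58.8%, 54.9% and 52.7% of the NSun3 reads and 23.1%, 27.8% and 26.0% of the NSun6 reads (exact permutation test, two-sided p = 0.1). Counted by position, these shares were 71.9% and 68.6% on average.

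**Figure D1:**
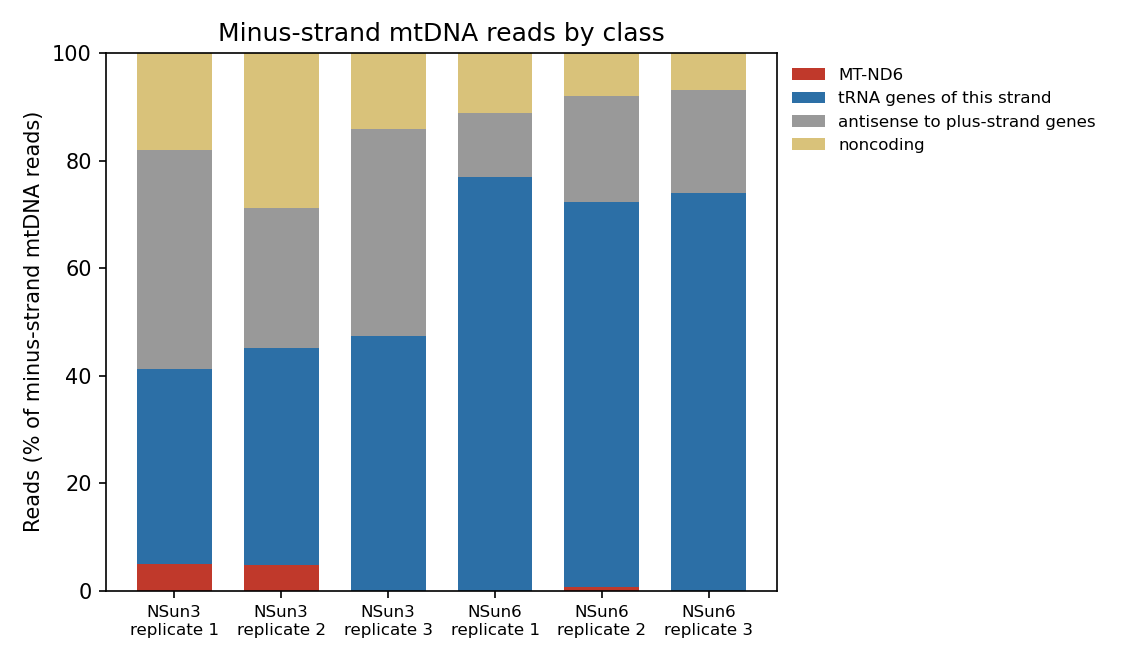
Minus-strand mtDNA reads of each miCLIP library by class, as percent of that library's minus-strand mtDNA reads; each bar is 1 library. The tRNA share is 71.6% to 76.9% in the NSun6 bars and 36.3% to 47.3% in the NSun3 bars, and MT-ND6 is visible mainly in NSun3 replicates 1 and 2.

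MT-ND6 itself was sparsely read. It had 54, 19 and 0 reads in the NSun3 libraries and 0, 7 and 0 in the NSun6 libraries, which is 389, 358 and 0 RPM against 0, 14.97 and 0 RPM. Only NSun3 replicates 1 and 2 and NSun6 replicate 2 had any reads, and a count of 0 allows up to 63.4 RPM in NSun3 replicate 3 and up to 9.26 and 9.82 RPM in NSun6 replicates 1 and 3. The groups overlapped (exact permutation test, two-sided p = 0.4), and the gene was too low for the test across all regions. Where leaving out 1 library let it into that test, it passed the filter through its NSun3 reads alone, so no test of it is given. Of the 73 NSun3 reads, 34.2% lay at base 2 of the gene, next to its boundary with MT-TE, and these were 7 and 18 reads in replicates 1 and 2. No cytosine in MT-ND6 was a high-confidence site of either enzyme.

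Reads over the MT-ND6 locus were mostly on the other strand. The plus strand there, which belongs to the precursor of the other genes, held 2443, 720 and 548 reads in the NSun3 libraries and 34, 69 and 35 in the NSun6 libraries. The MT-ND6 strand thus made up 2.16%, 2.57% and 0% of the reads of its own locus for NSun3 and 0%, 9.21% and 0% for NSun6. For plus-strand RNA opposite MT-ND6 every NSun3 library was above every NSun6 library, at 14246 ± 3061 RPM against 122 ± 22.3 RPM (SD, n = 3; exact permutation test, two-sided p = 0.1).

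Of the 8 tRNA genes, MT-TY, MT-TP and MT-TC held nearly all reads. MT-TY had 1857, 2357 and 2154 RPM in the NSun3 libraries and 849, 473 and 563 RPM in the NSun6 libraries. The enzymes did not overlap, and the NSun3 mean was 3.38 times that of NSun6. It was higher in NSun3 by 2.91 ± 0.709 on the log2 scale (SE; edgeR, adjusted p = 0.00749), by 0.83 with RLE factors (adjusted p = 0.0403) and by 1.75 with library totals alone, a setting added after seeing the data (adjusted p = 0.000529). With mtDNA features alone it was at -0.55 and not called (adjusted p = 0.174). MT-TP went the other way on the RPM scale, with 569, 641 and 612 RPM against 1222, 1037 and 917 RPM. Its groups did not overlap either, and its NSun3 mean was 0.574 times that of NSun6 (exact permutation test, two-sided p = 0.1). Its share of the minus-strand reads was 8.72% ± 1.65 for NSun3 and 41.7% ± 1.503 for NSun6 (SD, n = 3).

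The edgeR result for MT-TP depended on the scaling. With TMM scaling the log2 difference was 0.39 ± 0.641 (SE, adjusted p = 0.574), with RLE factors -1.74 (adjusted p = 0.000205) and with library totals alone -0.80 (adjusted p = 0.00820). MT-TC had reads in all NSun6 libraries, at 241, 197 and 170 RPM, but for NSun3 only in replicate 1, at 425 RPM. It needed its NSun6 reads to pass the filter, so only its log2 difference is given, 1.70 ± 1.71 (SE; edgeR). All 3 NSun6 libraries and 1 NSun3 library were above the filter's minimum in MT-TC, and in RPM its NSun3 mean was the lower one, 142 against 203 RPM. Without NSun3 replicate 1, NSun3 had no read in MT-TC, so no test without it is given.

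The other tRNA genes had few reads or none. MT-TQ, the gene of tRNA-Gln, had 2 and 3 reads in NSun3 replicates 1 and 2, all at base 57. MT-TE, the gene of tRNA-Glu, had 1 read in NSun6 replicate 2. MT-TA, MT-TN and MT-TS1, the genes of tRNA-Ala, tRNA-Asn and a tRNA-Ser, had none in any library, which allows up to 21.6 to 63.4 RPM per NSun3 library and 6.42 to 9.82 RPM per NSun6 library. Reads were kept by the authors only where they had a single best place in the genome, and nuclear DNA holds copies of mtDNA. In the reference, all 73 starts in MT-TN and all 69 in MT-TS1 needed over 30 nt to be told from nuclear DNA by exact match. In MT-TA it was 46 of 69 starts, in MT-TQ 53 of 72 and in MT-TE 44 of 69. Of all minus-strand starts 61.2% were within 30 nt, and these held 99.4% to 100% of the minus-strand reads of each library. How much of the missing signal followed from the single-place filter was not tested, since read lengths were not used.

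**Figure D2:**
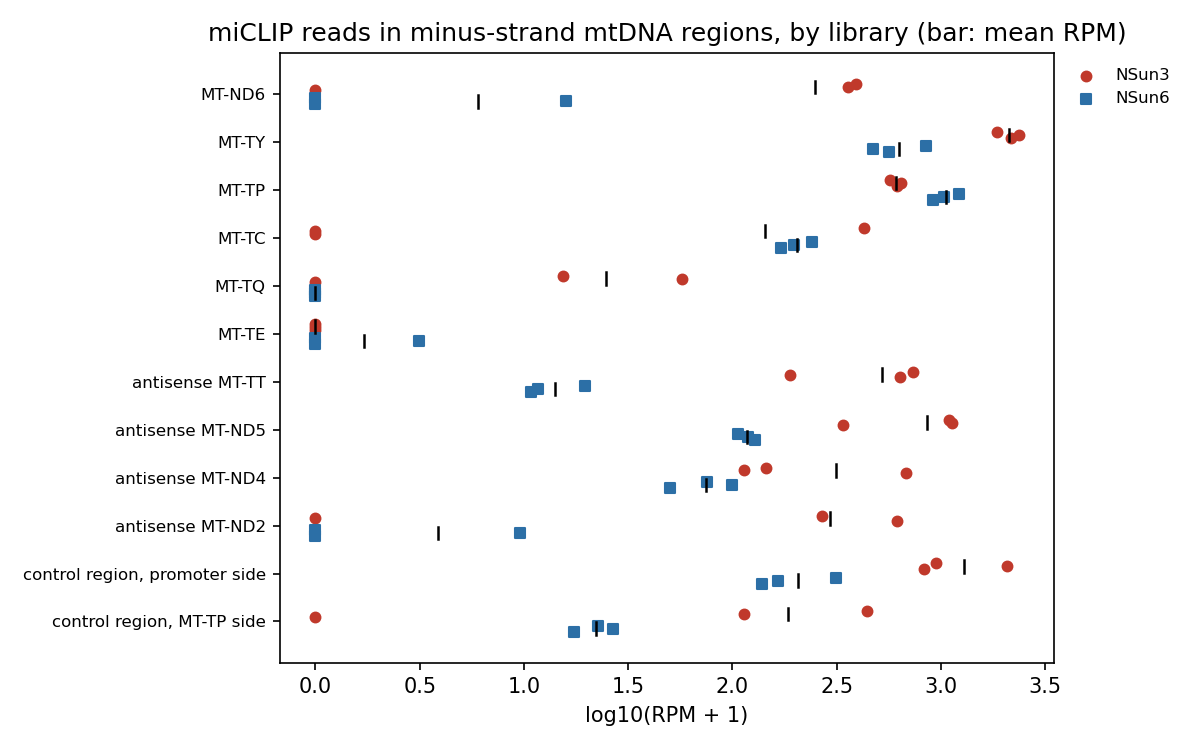
Reads in named minus-strand regions on a log10(RPM + 1) scale, 3 NSun3 libraries as circles and 3 NSun6 libraries as squares, with a bar at the mean RPM. NSun3 lies above NSun6 without overlap in MT-TY, in the antisense regions of MT-TT, MT-ND5 and MT-ND4 and on the promoter side of the control region, and below it in MT-TP.

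Within the 3 tRNA genes the truncations piled up at single bases. In MT-TY, base 35 took 61.6%, 56.0% and 86.3% of the gene's reads in the NSun3 libraries and 79.6%, 67.0% and 73.3% in the NSun6 libraries, so both enzymes stopped mainly at the same base. This is the base before the cytosine in capitals in the MT-TY line, C at base 36. In MT-TP, base 37 took 62.9%, 58.8% and 69.6% of the NSun6 reads and 32.9%, 52.9% and 0% of the NSun3 reads. It again lies directly before a cytosine, at base 38. For NSun3 the highest base of MT-TP by mean was base 26, at 7.20, 189 and 612 RPM, against 187, 339 and 0 RPM at base 37. The 612 RPM were all MT-TP reads of NSun3 replicate 3, and base 26 had 12.3, 0 and 0 RPM in the NSun6 libraries. In MT-TC, base 2 held 66.7%, 77.2% and 71.2% of the NSun6 reads and every one of the 59 reads of NSun3 replicate 1. Base 2 also lies directly before a cytosine, at base 3. Whether stops on this side of a cytosine mark it as the target was not tested. All MT-TC reads fell in bases 1 to 6, which are the 6 starts of 66 that are told from nuclear DNA within 30 nt. In MT-TY the 22 starts over 30 nt are bases 1 to 22, and its reads began at base 23.

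The leading cytosine of MT-TY in both enzymes and that of MT-TP in NSun6 had the same place relative to the anticodon. The anticodon, the bases that read the codon, was found at bases 30 to 32 of MT-TY (gta) and at bases 32 to 34 of MT-TP (tgg). Both cytosines, as assigned from stops directly before them, lay 4 bases after it, on the 3′ side of the anticodon stem-loop. For NSun3 the MT-TP cytosine at base 24, which lies before the anticodon, had the higher mean, 301 ± 274 RPM against 235 ± 227 RPM at base 38 (SD, n = 3). The MT-TY cytosine and the 2 bases on either side of it read atCta, which 0.231% of the 2169 minus-strand cytosines in the reference share. For the leading MT-TP cytosine they read tgCta, shared by 1.80%, and for the second MT-TP site, at base 24, they read atCtt, shared by 0.461%. CTCCA, the letters known to surround NSun6 targets, occurred within 5 nt of none of the 5 NSun6 sites when the minus strand was searched, and within 5 nt of 1.11% of all minus-strand cytosines.

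**Figure D3:**
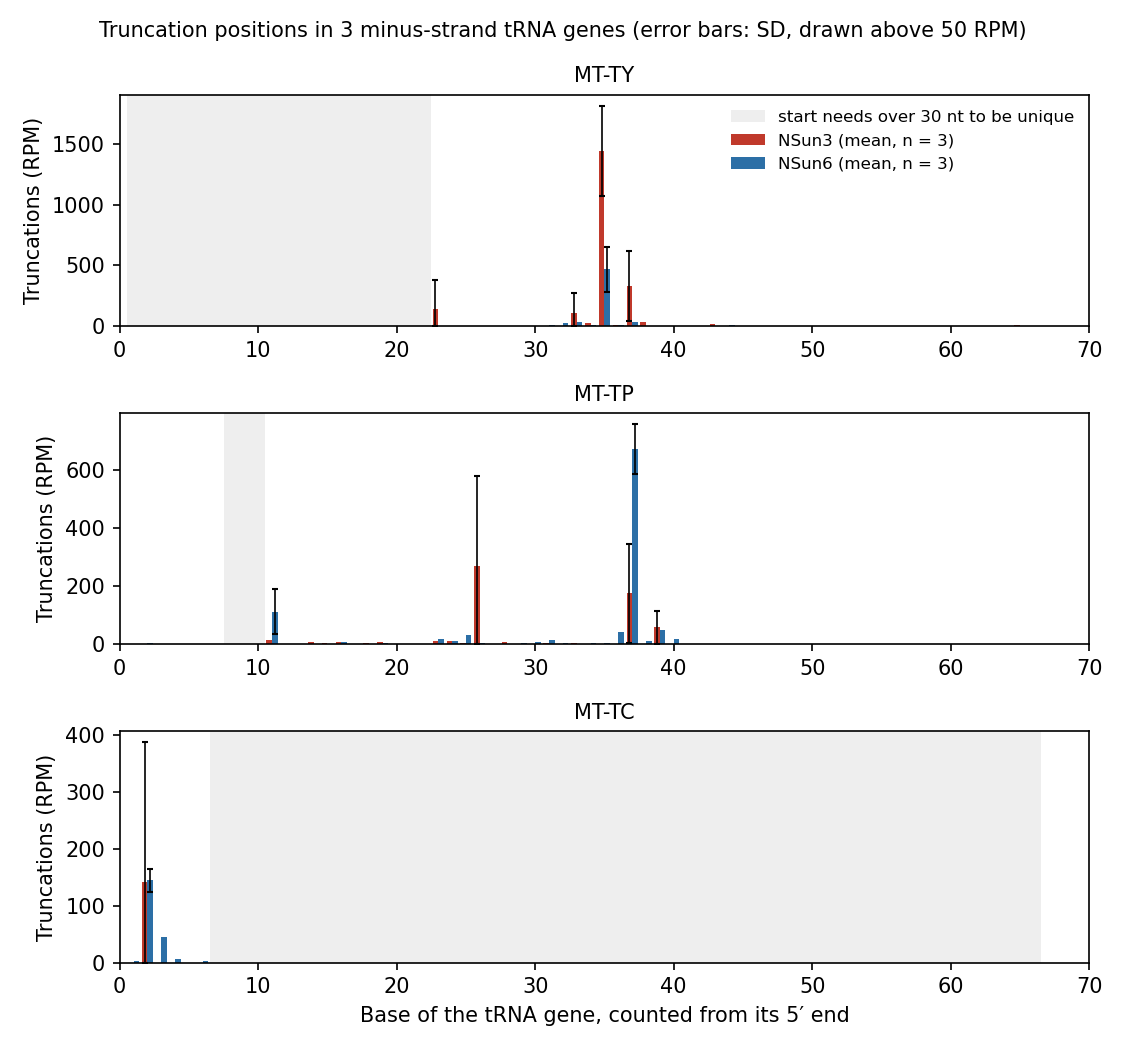
Truncations per base in MT-TY, MT-TP and MT-TC, as mean RPM of 3 libraries per enzyme with SD bars (drawn above 50 RPM and not below 0), counted from the 5′ end of each gene. Grey marks starts that need over 30 nt to be told from nuclear DNA. The highest bars are at base 35 of MT-TY, at base 37 of MT-TP for NSun6 and base 26 for NSun3, and at base 2 of MT-TC.

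Each enzyme had 5 high-confidence sites on the minus strand, out of 707 for NSun3 and 1881 for NSun6 in all. Those were 5.62% and 5.88% of the minus-strand cytosines with a read, where 8.85% and 2.18% of all cytosines with a read were sites. NSun3 sites were 3 in tRNA genes, 1 antisense and 1 noncoding, and NSun6 sites were 4 in tRNA genes and 1 noncoding. The enzymes had 3 in common, 60% of either list: C at 5857 in MT-TY and C at 15987 and 16001 in MT-TP. The sites seen for NSun6 alone were 5825 in MT-TC and 411 in the control region, and those for NSun3 alone were 15921 opposite MT-TT and 16066 in the control region. A site in 1 list only is not shown to differ, and 5825 reached 425 RPM in NSun3 replicate 1. The site at 16066 had 25, 3 and 0 reads in the NSun3 libraries (180, 56.6 and 0 RPM), so replicate 2 was at the floor of 3 reads. Over 50 RPM took 7, 3 and 3 reads in the NSun3 libraries and 17, 24 and 16 in the NSun6 libraries. The site counts of the enzymes thus rest on unlike numbers of reads.

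Cytosines were then compared between enzymes. Of 6 minus-strand cytosines that passed the filter, 3 were higher in NSun3 and none lower, while over all 1775 cytosines tested 16.5% were higher and 72.3% lower. In RPM, the NSun3 libraries lay wholly above at the same 3 and wholly below at 2, which over all those tested held for 15.7% and 74.1%. The split depended on the scaling, with 1 higher and 2 lower both with RLE factors and with DESeq2. Over all 1775 cytosines 261 were higher and 1381 lower with RLE factors, and 262 and 1385 with DESeq2. The minus-strand counts include 15921 and 411, where libraries of 1 enzyme alone were above the filter's minimum of 45.01 RPM. At 5825 and 15987, 1 and 2 NSun3 libraries were above it besides all 3 NSun6 libraries, so their NSun3 reads alone would not have passed it. The cytosine at 15921, opposite MT-TT, had 641, 189 and 634 RPM in the NSun3 libraries and no read in the NSun6 libraries. Its mean of 488 ± 259 RPM (SD, n = 3) was at least 57.4-fold higher than NSun6 at a floor of 3 reads per library. It passed the filter through NSun3 alone, so no test of it is given. These truncations lay at 15919 and 15920, and replicate 3 had its 30 reads at the first of these and replicate 2 its 10 at the second. The cytosine at 5857 in MT-TY had 1756, 1905 and 1858 RPM against 738, 374 and 472 RPM. It was higher in NSun3 by 2.05 ± 0.543 on the log2 scale (SE; edgeR, adjusted p = 0.00272), but at 0.21 with RLE factors (adjusted p = 0.640) and not called without NSun3 replicate 1, 2 or 3 (0.38, 1.203 and 1.21, adjusted p = 0.550, 0.265 and 0.0849). The cytosine at 16001 in MT-TP had 101, 189 and 612 RPM against 74.1, 81.3 and 45.8 RPM (edgeR, log2 difference 2.33 ± 0.689 (SE), adjusted p = 0.00558). All 29 reads of NSun3 replicate 3 there came from base 26 of MT-TP, and without that library the difference was 0.30 (adjusted p = 0.588). The call was also lost without NSun3 replicate 1 (0.60, adjusted p = 0.210) or 2 (0.63, adjusted p = 0.248) and with RLE factors (0.38, adjusted p = 0.541).

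The other 3 were not called with TMM scaling. The cytosine at 15987 in MT-TP, the strongest minus-strand site of NSun6, had 883, 746 and 750 RPM there and 252, 453 and 0 RPM in the NSun3 libraries. The enzymes did not overlap. With all libraries this cytosine needed its NSun6 reads to pass the filter, and it was high in NSun6. Only its log2 differences are therefore given for those fits. They were -1.47 ± 0.845 (SE; edgeR) with TMM scaling, -3.23 with RLE factors and -3.23 with DESeq2. Without NSun3 replicate 3, both NSun3 libraries left were above the minimum, and it was called lower in NSun3, at -1.95 (edgeR, adjusted p = 0.00784). The same 2 NSun3 libraries were above it without NSun6 replicate 1, 2 or 3, and 15987 was not called there. Its differences were then -2.20, -2.19 and -2.21 (edgeR, adjusted p = 0.219, 0.174 and 0.199). Without NSun3 replicate 1 or 2, where it needed its NSun6 reads, they were -2.76 and -2.39. The cytosine at 411 lay 2 bases upstream of the truncations at position 409, in the stretch of the control region that holds the light-strand promoter. Whether these truncations mark a target cytosine or an end of the transcript was not tested. It had 95.7, 59.9 and 45.8 RPM for NSun6 and 43.2, 0 and 0 RPM for NSun3. It passed the filter through NSun6 alone, so no test of it is given.

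Sites below the thresholds differed between replicates. Of the NSun3 minus-strand positions, 89.6% had reads in a single library, and these held 47.1% of the reads. For NSun6, 80.0% of positions were seen in a single library but they held 19.9% of the reads, and the 22 positions seen in all 3 libraries held 72.8%. For NSun3 only 2 positions were seen in all 3 libraries, with 20.1% of the reads. Among the cytosines with the highest NSun3 mean, 349 in the control region had 773 RPM in replicate 2 alone and 11799 opposite MT-ND4 had 676 RPM in replicate 3 alone. The cytosine at 12346 opposite MT-ND5 had 21.6, 415 and 0 RPM. For NSun6 the remaining leaders were weak, with 46.3, 2.14 and 32.7 RPM at 11364 opposite MT-ND4, 37.04, 2.14 and 19.6 RPM at 12562 opposite MT-ND5, and 43.2, 47.1 and 3.27 RPM at 15996 in MT-TP.

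The antisense and noncoding parts of the precursor held more of the NSun3 minus-strand reads than the tRNA genes did, 55.5% ± 3.09 against 41.3% ± 5.56 (SD, n = 3), and more in each NSun3 library. These shares were not scaled to length. The antisense and noncoding parts are far longer, with 1886 and 167 reference cytosines against 79 in the tRNA genes. The promoter side of the control region, next to the start of the minus-strand transcript, had 950, 2075 and 824 RPM in the NSun3 libraries and 312, 165 and 138 RPM in the NSun6 libraries. It was higher in NSun3 by 3.78 ± 0.817 on the log2 scale (SE; edgeR, adjusted p = 0.00523), by 1.79 with RLE factors (adjusted p = 0.00157), and was not called with mtDNA features alone (0.31, adjusted p = 0.635). RNA opposite MT-ND5, a complex I subunit gene, had 1094, 1132 and 338 RPM against 105, 118 and 128 RPM, with reads at 60 positions for each enzyme (edgeR, log2 difference 4.37 ± 1.04 (SE), adjusted p = 0.00697). The difference was 1.96 with RLE factors (adjusted p = 0.00109), and it was not called with mtDNA features alone (0.47, adjusted p = 0.493). RNA opposite MT-TT had 734, 189 and 634 RPM against 18.5, 10.7 and 9.82 RPM, means of 519 ± 290.4 and 13.0 ± 4.79 RPM (SD, n = 3) that did not overlap. It passed the filter through NSun3 alone, so no test of it is given. RNA opposite MT-ND4 had 144, 113 and 676 RPM against 74.1, 98.4 and 49.1 RPM (edgeR, log2 difference 2.59 ± 0.519 (SE), adjusted p = 0.00437). This call was lost with RLE factors (0.97, adjusted p = 0.111) and with DESeq2 (0.99, adjusted p = 0.0813), and the value was -0.21 with mtDNA features alone (adjusted p = 0.823). All 32 reads of NSun3 replicate 3 in the last lay at 1 base. The promoter side, RNA opposite MT-ND5 and MT-ND4, and MT-TY stayed called without that library. In nuclear exons too, a larger share of NSun3 than of NSun6 reads lay opposite the annotated strand. The part of this in the antisense mtDNA reads was not tested.

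Other antisense regions did not reach the test. RNA opposite MT-ND2 had 266, 0 and 612 RPM for NSun3 and 0, 8.55 and 0 RPM for NSun6. RNA opposite MT-ND4L ran the other way, with 36.0, 18.9 and 0 RPM against 67.9, 36.4 and 62.2 RPM and no overlap. RNA opposite MT-ND1 had 137, 0 and 0 RPM against 0, 57.7 and 39.3 RPM. RNA opposite the rRNA genes was almost absent, with 1 read for NSun3 and 7 for NSun6 in all.

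Of the 41 minus-strand regions, 29 had a read and 7 passed the filter, a filter that a region high in 1 enzyme can pass through that enzyme alone. Of these 7, 5 were higher in NSun3 and none was lower, RNA opposite MT-TT among them through its NSun3 reads alone, where 4.75% of all 1746 regions and genes tested were higher and 84.9% lower. In RPM, every NSun3 library was above every NSun6 library in 4.24% of the 1746 and below in 90.7%. The median log2 difference over all of them was -7.31 with TMM scaling and -7.72 with RLE factors, and every minus-strand region tested lay above it. With RLE factors the calls were 4 higher and 1 lower, where 66 and 1613 of all 1746 were. With library totals alone they were 5 and 1, where 76 and 1581 of all 1746 were. With mtDNA features alone, 1 of the 9 minus-strand regions tested was higher and 2 lower, where 10 and 13 of all 36 were. RNA opposite MT-TT, of which no test is given, is counted as higher in each setting and was the only one with mtDNA features alone. MT-TP was among the lower there.

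The partners of MT-ND6 in complex I that are read from the plus strand are given for comparison. With TMM scaling, 4 of these 6 genes were higher in NSun3 and none lower (edgeR, where 4.75% and 84.9% of all tested were). Their median log2 difference was 3.61, and values with other scalings are not given for this list. MT-ND1 stood at 38747 ± 5900 RPM for NSun3 and 903 ± 149 RPM for NSun6 (SD, n = 3). MT-ND3 and MT-ND4L were not called, with log2 differences of 0.49 and -0.74. In RPM both had lower NSun3 means, 8084 ± 1581 against 14890 ± 1614 for MT-ND3 and 1307 ± 220.2 against 5583 ± 635 for MT-ND4L (SD, n = 3). MT-ND6 had 249 ± 216 RPM and 4.99 ± 8.64 RPM. Nuclear genes that transcribe, cut or degrade mitochondrial RNA gave little signal: of 22 such genes 19 had a read, and 1 passed the filter. That one, MTPAP, the mitochondrial poly(A) polymerase, had 418 ± 110 RPM for NSun6 (SD, n = 3) and no read for NSun3, and passed through NSun6 alone, so no test of it is given.

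Bisulfite sequencing covered most of the minus strand, with gaps. No cytosine was listed in MT-TA, MT-TN and MT-TS1, with 9, 9 and 12 in the reference, nor opposite MT-TW. None was covered opposite MT-TD, and 2 of 11 were at the light-strand origin. Of its 2169 reference cytosines 90.1% were listed and 1908 had a coverage over 5 reads, with a median coverage of 648 reads over the listed ones. The plus strand, which has more cytosines, had a median of 148. A cytosine was called at a level, the share of unconverted reads, of at least 20%. On the minus strand 345 cytosines or 18.1% were called, against 62.8% on the mtDNA plus strand and 0.775% of all 15765855 cytosines covered. Pooled over all reads the minus-strand level was 3.44%, and the median cytosine had 5.48%. On the plus strand the pooled level was lower, at 2.19%, and the median cytosine higher, at 50%. Summed over cytosines, coverage was 5543219 reads on the minus strand and 19543733 on the plus strand, the opposite order to the medians. PCR copies may be among the reads, and the intervals below cover counting error only.

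Calls came in runs. Of the 345 called cytosines, 96.8% had a called neighbour among the minus-strand cytosines, and they formed 45 runs of up to 38 cytosines. By class, 22 of 37 cytosines in MT-ND6 were called, 8 of 49 covered ones in tRNA genes, which hold 79 in the reference, 315 of 1685 in antisense RNA and 0 of 137 in noncoding RNA. Opposite the rRNA genes 170 of 408 were called, at a median coverage of 18, while the plus strand there had a median coverage of 4557 and a pooled level of 0.102%. Opposite the plus-strand mRNA genes 143 of 1165 were called at a median coverage of 1685. The control region had none, with pooled levels of 0.0965% on its promoter side and 0.405% on its MT-TP side.

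Levels were lower where coverage was higher. Across the 1908 cytosines the level had a Spearman rho of -0.49 with coverage. In 41 windows along the strand the pooled minus-strand level had a rho of -0.72 with minus-strand coverage and of 0.58 with plus-strand coverage. These points share 1 table and overlapping reads, so no p is given. Over MT-ND5, for example, the minus strand had a median coverage of 5607 and a pooled level of 3.39%, and the plus strand 157 reads and 74.5%. The part of coverage in these levels was not tested.

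**Figure D4:**
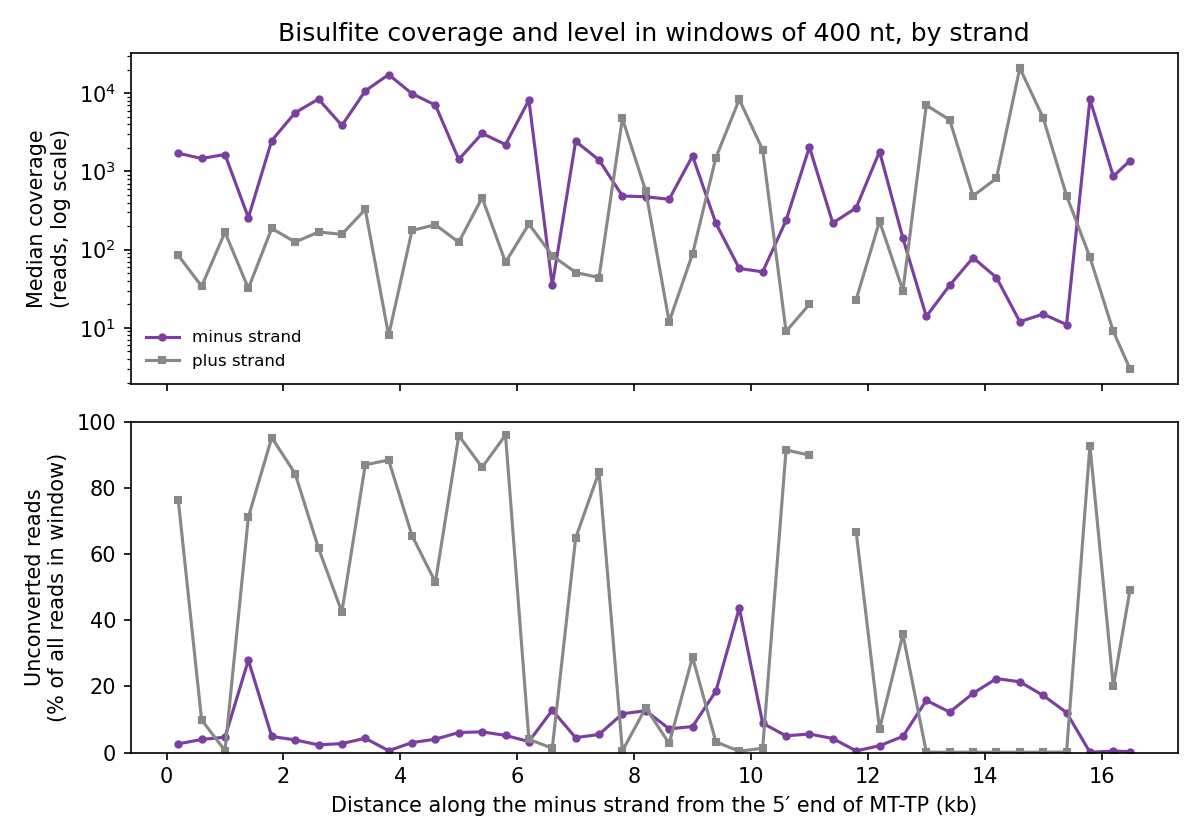
Median bisulfite coverage (top, log scale) and pooled share of unconverted reads (bottom) in windows of 400 nt, for minus-strand and plus-strand cytosines, against distance along the minus strand from the 5′ end of MT-TP; the last window is shorter. The window with the highest minus-strand level, 43.7%, has a median coverage of 57.5 reads on the minus strand and 8330.5 on the plus strand.

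The longest stretch of calls in minus-strand genes ran from MT-TE into MT-ND6. Their 5′ parts are shown in transcript sense with the called cytosines in capitals, 8 in the 69 bases of MT-TE (chrM:14675-14743) and 12 in the first 150 bases of MT-ND6 (chrM:14525-14674), a message with 7.05% C and 35.6% G.
MT-TE: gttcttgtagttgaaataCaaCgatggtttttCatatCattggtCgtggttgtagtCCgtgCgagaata
MT-ND6: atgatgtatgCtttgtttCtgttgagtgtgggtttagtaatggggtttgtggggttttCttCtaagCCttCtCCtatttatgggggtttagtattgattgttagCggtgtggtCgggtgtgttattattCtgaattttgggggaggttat

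In MT-TE the levels of this run of 20 cytosines ranged from 28.6% to 40% at 84 to 94 reads, and the first cytosine of the gene, at base 4, had 15.3%. In MT-ND6 base 11 had 27.2% (95% exact binomial interval 18.9% to 36.8%, 103 reads) and base 19 had 30.9%. Bases 59 to 74 had 63.8% to 85.8%, with the highest level at base 73, 285 of 332 reads (81.6% to 89.4%). Base 74 had 85.2%, base 71 had 83.3%, base 68 had 80.4%, base 67 had 78.7%, base 62 had 68.6% and base 59 had 63.8%. Further on, bases 105 and 114 had 57.2% and 57.0%, and base 130 had 29.1% of 1477 reads (26.8% to 31.5%). From base 11 to base 74 the converted reads stayed between 47 and 76, while the unconverted reads went from 28 to 293.

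The rest of MT-ND6 was divided into 3 stretches by its called and uncalled cytosines, after the values were seen. Bases 131 to 235 had 6 cytosines at 8.87% to 19.4% with a median coverage of 1433, and none was called. Bases 236 to 406 had 10 cytosines, all called, at 20.8% to 34.7% and a median coverage of 490. Bases 407 to 525 had 9 cytosines at 1.17% to 7.46% and a median coverage of 5414, none called. By median, the stretches with calls had less coverage than those without. The plus strand opposite had all 187 cytosines called, at a pooled level of 73.4%, 65.6%, 88.2% and 97.4% over the 4 stretches from the 5′ end.

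**Figure D5:**
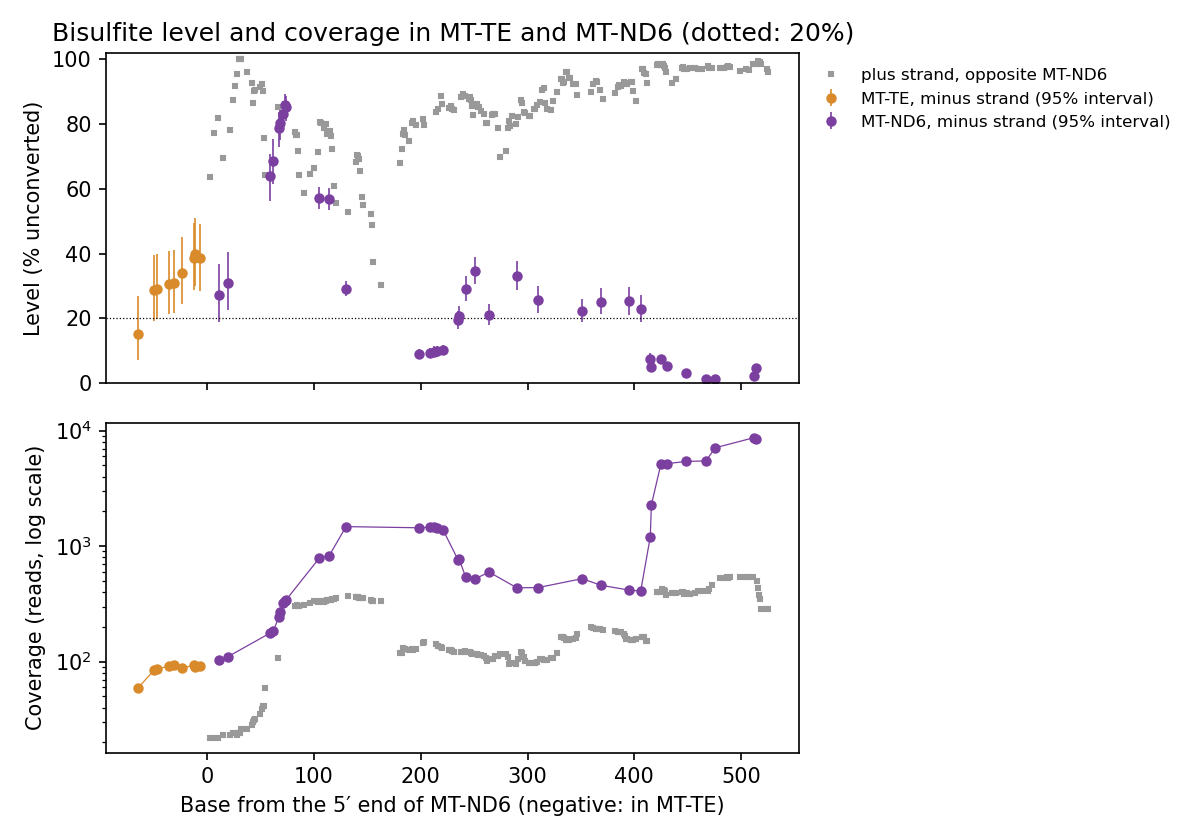
Share of unconverted reads (top) and coverage (bottom, log scale) at minus-strand cytosines of MT-TE and MT-ND6, with 95% exact binomial intervals, and at plus-strand cytosines opposite MT-ND6, by base from the 5′ end of MT-ND6. Minus-strand levels peak at 85.8% at base 73 and lie below 8% after base 406, where coverage is highest.

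Called cytosines with the most reads outside the minus-strand genes were all opposite MT-CO2, a cytochrome c oxidase subunit gene. They lay at 7897, 7898, 7903, 7911 and 8185, at 21.3% to 24.4% of 685 to 689 reads. The longest run, of 38 cytosines, lay opposite MT-CO1 between 6146 and 6334 at coverages of 6 to 71.

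Cytosines of MT-TY, MT-TP and MT-TC were not called. The MT-TY cytosine at 5857 had 3 of 89 reads unconverted, 3.37% (0.701% to 9.54%). The MT-TC cytosine at 5825 had 6.52% of 92 reads (2.43% to 13.7%). The same count, 6 of 92 reads, was found at 7 cytosines from 5822 to 5838, across the boundary of both genes. In MT-TP the cytosine at 15987 had 1 of 99 reads, 1.01% (0.0256% to 5.50%), and that at 16001 had 0 of 141, an interval up to 2.58%. The cytosine at 15921 opposite MT-TT had 2.58% of 155 reads and that at 16066 had 0.218% of 1373. The cytosine at 411 had 1 read and no usable level. None of the 5 NSun3 sites and none of the 4 covered NSun6 sites on the minus strand was called, where 18.1% of minus-strand cytosines were. The bisulfite RNA was selected for poly(A), and which of these reads came from mature tRNA was not tested.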

How the data were processed

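miCLIP reads were filtered for identical random barcodes, trimmed, kept from 18 nt, aligned to hg19 with bowtie (1 mismatch, single best place) and deposited by the authors as whole-number counts per truncation position, without a strand column. The first of 2 passes over the chromosomes was taken as the plus strand. In nuclear exons annotated on 1 strand, 96.2% to 97.9% of NSun6 positions and 62.6% to 87.0% of NSun3 positions then lay on the annotated strand. By reads it was 97.2% to 98.8% for NSun6 and 72.9% to 90.2% for NSun3, so a larger share of NSun3 reads lay opposite it. A check of motif offsets could be read for NSun6 only. In the first pass of NSun6 replicate 1, 24.1% of nuclear positions had the motif at offset -1 and 19.5% at offset 0. At offsets -2 and 1 it was 2.33% and 0.969%. Offset -1 was highest and offset 0 next in each NSun6 library and pass. These offsets were not compared with the stops in the minus-strand tRNA genes. Bisulfite reads were aligned with Bismark. The deposited table holds the percent methylated beside counts of unconverted and converted reads, and the way in which both samples entered it is not given in the sources used here. Of 6524 mtDNA positions, 24 were neither C nor G in the reference and 8 had no counterpart there. All were left out.

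RPM was taken over all reads of a library (47352 to 467586). Counts per region and per cytosine were compared over all features with the edgeR 4.0.16 quasi-likelihood test (TMM, filterByExpr, Benjamini-Hochberg, threshold 0.05). A simulated trial of these steps for regions and genes had 199 of 1621 altered by 8-fold. In the real comparison, 84.9% of 1746 regions and genes were lower in NSun3 and 4.75% were higher. How TMM scaling behaves where most features differ was therefore not tested by that trial. Positive log2 differences are higher in NSun3. SE is the log2 difference over the square root of F. Shares were compared with exact permutation tests (scipy). Uniqueness was computed from GRCh37, as exact matches of its mtDNA to nuclear DNA. Repeats within mtDNA and matches with a mismatch were not searched. Intervals are 95% Clopper-Pearson. Floors are 3 reads. Depth limits precision, as 1 read in NSun3 replicate 3 is worth 21.1 RPM. Members, lists and named items (all minus-strand genes, leading regions and cytosines by mean RPM, called cytosines by level or coverage) were chosen with earlier results of these data known.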

Additional observations from a re-analysis of the deposited data

How the results depend on the processing

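The 4 shares kept their direction under each alternative run, but none could reach a p under 0.05 with 3 libraries against 3. Without 1 library, the difference (NSun3 less NSun6) ran from -0.823 to -0.491 points for the minus-strand share of mtDNA reads, from 2.16 to 4.62 for MT-ND6, from -35.8 to -30.3 for tRNA genes and from 28.2 to 31.2 for antisense or noncoding positions. The 5 regions called became 13 without a filter, 3 with mtDNA features alone and 6 to 11 without 1 library (9 without NSun3 replicate 3, 11, 10 and 10 without NSun6 replicates 1, 2 and 3). The minus-strand regions tested went from 7 to 29, 9 and 9 to 13 in these settings. Over all features, 195 were higher and 3888 lower of 15353 without a filter, and 10 and 13 of 36 with mtDNA features alone. Without 1 library 84 to 128 were higher and 1108 to 2471 lower, of 1393 to 3213. MT-ND6, of which no test is given, was among the calls without a filter, without NSun3 replicate 3 and without each NSun6 replicate. The 3 cytosines called became 11 without a filter, 1 with a cytosine within 1 nt and 1 to 4 without 1 library. The minus-strand cytosines tested went from 6 to 153, 4 and 5 to 10 in these settings. Over all cytosines, 751 were higher and 3418 lower of 92349 without a filter, and 232 and 1233 of 1630 within 1 nt. Without 1 library 231 to 448 were higher and 924 to 2555 lower, of 1583 to 3321.

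With the replicate number as a block, 1 region and 1 cytosine were called, RNA opposite MT-TT and the cytosine at 15921. Both passed the filter through NSun3 alone, so no test of them is given. Tested on the minus strand were 7 regions and 6 cytosines. Over all features, 47 of 1746 regions and genes were higher with the block and 1232 lower, and of 1775 cytosines 254 and 1187. MT-TY was not called (2.63, edgeR adjusted p = 0.187). The promoter side, RNA opposite MT-ND5 and MT-ND4, and the cytosines at 5857 and 16001 lost their calls as well. Same-numbered libraries correlated at r = 0.00993 to 0.0838 in their deviations, under 0.1, and 5 of 6 libraries correlated best with their own number, a hint from the data and not the design.

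The 5 high-confidence NSun3 sites became 8 over 20 RPM, 3 in all 3 replicates, 3 with a cytosine within 1 nt and 3 to 5 without 1 library. The 5 NSun6 sites became 3 over 100 RPM, 3 in all 3 replicates and 3 to 5 without 1 library. The 345 bisulfite calls became 195 with a coverage over 20, 608 at 10% and 148 at 40%.

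MT-TP turned from 0.39 to -1.74 with RLE, -1.26 without a filter, -1.75 with DESeq2, -3.14 with mtDNA alone, -0.80 with library totals and -0.75 without NSun3 replicate 1, and was called higher, at 1.15, without NSun6 replicate 1. MT-TC turned from 1.70 to -1.15, -0.095, -1.44, -2.79, -0.16 and -8.61 in the same settings and to -3.27 with the block, and ran from -8.61, a fit with no NSun3 read and no bound, to 1.87 without 1 library. MT-TY turned only with mtDNA alone, to -0.55. The causes were not tested.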
